A study of Mus musculus with 4 samples.

Results

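The 10 genes described here are those that myeloid cells use to steer T cells, followed in *in vitro* MDSCs, the immature myeloid cells obtained by stimulating bone marrow (BM) cells with GM-CSF. They were chosen by gene symbol among the 24346 genes of the deposited tables: the ligands of PD-1 (*Cd274* and *Pdcd1lg2*), the costimulators *Cd80*, *Cd86*, *Icosl* and *Cd40*, the galectin gene *Lgals9*, the cytokine genes *Tgfb1* and *Il10*, and *Cd47*. All 10 genes have a row in the tables of the 4 libraries. BM cells of female C57BL/6J mice aged 6 to 8 weeks were cultured for 4 days with 40 ng/ml GM-CSF in 2 Control cultures without G-CSF, and with 40 ng/ml GM-CSF and 5 ng/ml G-CSF in 2 G-CSF cultures. Both groups therefore received GM-CSF, and the RNA came from whole cultures, in which MDSCs were not sorted from other cells. The comparison asks which of these genes differ in level when G-CSF is present during the culture.

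T cells read an antigen together with a set of accessory signals. CD80 and CD86 bind CD28 as costimulators and CTLA-4 as inhibitors, ICOS ligand binds ICOS, and CD40 receives a signal back from CD40 ligand on the T cell. PD-L1 and PD-L2, the products of *Cd274* and *Pdcd1lg2*, bind PD-1 and dampen T cell activation, and MDSCs are known for suppressing T cells partly through such ligands and through the cytokines TGF-β1 and IL-10.

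The values are FPKM (fragments scaled to transcript length and to library depth), so that levels can be compared between genes. From the steps between the lowest values, the libraries held about 12450000 to 15700000 mapped reads. Over 10557 genes that reached 1 FPKM in all libraries, Pearson's r of log2(FPKM + 0.1) was 0.995 between the Control libraries and 0.995 between the G-CSF libraries, and 0.986 to 0.989 between libraries of different groups. Such coefficients run across genes, and genes are no independent replicates. Although the extraction label names liver, the hepatocyte genes *Alb*, *Apoa1*, *Ttr* and *Fgb* were listed at 0 in every library and 6 hepatocyte markers summed to 1.51 FPKM or less, while *S100a8* and *S100a9*, which neutrophils and MDSCs express strongly, reached 25565 FPKM or more and 20506 FPKM or more. The study calls the replicates biological, but the labels do not say whether they came from separate mice, so that p-values measure the spread between these cultures.

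With G-CSF, 6 of the 10 genes fell with an adjusted p under 0.05 (limma with Benjamini-Hochberg adjustment over all 12054 genes tested), namely *Cd40*, *Pdcd1lg2*, *Cd80*, *Icosl*, *Cd274* and *Tgfb1*. The same call was made for 11.2% of all genes tested, and 12.4% of all genes were called higher. Among the members, 0 were called higher, 1 (*Cd47*) was higher at an unadjusted p under 0.05, and limma's voom on estimated reads called 1 higher and 7 lower. Like *Cd47*, *Cd86* and *Lgals9* did not pass, and *Il10* was too low to be tested. None of the members reached a fold change over 2 together with an adjusted p under 0.05 (0 with limma, 0 at an unadjusted p under 0.05 and 0 with voom), which 1.41% of all genes did. The median log2 fold change of the 9 members tested was -0.34, and that of all genes tested was 0.0006. The libraries of the groups did not overlap in 8 of these 9 genes, with G-CSF lower in 7 and higher in 1, where 32.5% of all genes tested were lower and 33.5% higher in this way.

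**Figure D1:**
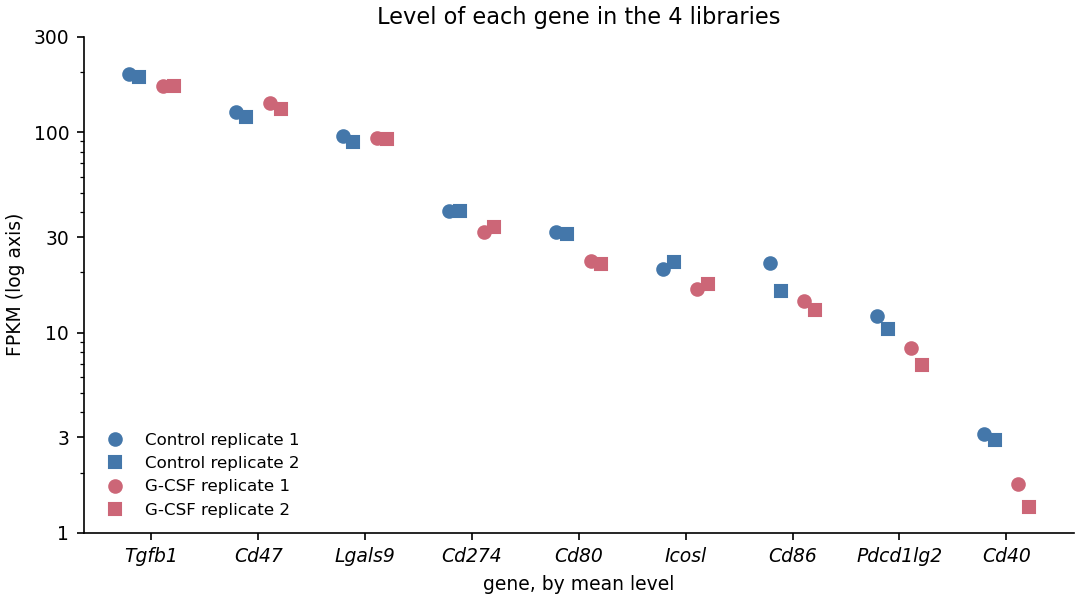
The y axis is the FPKM value of each gene on a log axis, and the points are the 4 libraries, Control in blue and G-CSF in red (circles, replicate 1; squares, replicate 2). *Tgfb1*, *Cd47* and *Lgals9* stand between 89.6 and 196 FPKM, *Cd40* between 1.34 and 3.11 FPKM, and in all genes shown but *Lgals9* the red points lie on one side of the blue points; *Il10*, listed at 0 in both G-CSF libraries, is not drawn.

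Ordered by their mean FPKM over the 4 libraries, *Tgfb1* (182), *Cd47* (129) and *Lgals9* (93.1) were the highest members. They were above 96.2%, 94.4% and 92.0% of all genes tested, and the ranges of these 3 genes over the libraries did not overlap. *Cd274* followed with 36.5, *Cd80* with 27.0, *Icosl* with 19.4 and *Cd86* with 16.4 mean FPKM. The ranges of neighbours among these 4 genes overlapped over the libraries of both groups. Within each library, however, *Cd274* was above *Cd80* and *Cd80* above *Icosl*, and only *Icosl* and *Cd86* changed places between libraries. *Pdcd1lg2* (mean 9.44 FPKM) and *Cd40* (mean 2.28 FPKM) were lower, and *Il10* (mean 0.05 FPKM) was represented by 0 to 2 reads per library.

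*Cd274* and *Pdcd1lg2*, the genes of PD-L1 and PD-L2, are neighbours on the plus strand of chromosome 19 (GRCm38), from 29367455 to 29388095 and from 29410919 to 29471161, with 22823 bases between them. *Cd274* stood at 40.4 and 40.3 FPKM in the Control and at 31.6 and 33.8 FPKM in the G-CSF libraries. Both G-CSF values were below both Control values, and the Control values differed by less than those with G-CSF. The mean fell by 18.9%, from 40.4 ± 0.116 to 32.7 ± 1.55 FPKM (SD, n = 2 each), which on the log2 scale is a change of -0.30 (standard error, SE, 0.0543, limma adjusted p = 0.0132). *Pdcd1lg2* had 12.1 and 10.4 FPKM in the Control and 8.41 and 6.92 FPKM in the G-CSF libraries. Its groups did not overlap either, and replicate 2 was the lower library in each group. It fell by 31.7% (log2 fold change -0.55, SE 0.123, limma adjusted p = 0.0251), on about 223 to 246 estimated reads per Control library and 159 to 165 per G-CSF library. The call of *Cd274* held in all 12 alternative settings (adjusted p 0.00438 to 0.0493). That of *Pdcd1lg2* was lost without a filter on low values (adjusted p = 0.0682), without Control replicate 1 (0.0879) and without G-CSF replicate 2 (0.0679). Within a library there was 3.35 and 3.88 times as much *Cd274* as *Pdcd1lg2* in the Control cultures, and 3.76 and 4.89 times as much with G-CSF, so that these ratios overlapped. Each gene has an annotated antisense transcript over it (AC119228.1 for *Cd274*, A930007I19Rik for *Pdcd1lg2*), and because the strand setting of the counting is not given in the sources used here, reads of the pairs cannot be told apart. A930007I19Rik itself was listed at 0.114 to 0.334 FPKM.

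The stretches before the start sites are shown for 3 genes that fell and whose windows lie outside annotated exons. They are the 250 bases before the transcript starts in RefSeq (GRCm38.p6), 5′ to 3′ on the gene's strand, all on the plus strand. Windows were at hand for 7 of the 10 genes (*Cd274*, *Pdcd1lg2*, *Cd80*, *Icosl*, *Lgals9*, *Tgfb1* and *Cd47*). Capitals mark matches to a kappa B motif, which factors of the NF-κB family bind, or to the AP-1 motif TGANTCA.

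*Pdcd1lg2*, chr19:29410669-29410918: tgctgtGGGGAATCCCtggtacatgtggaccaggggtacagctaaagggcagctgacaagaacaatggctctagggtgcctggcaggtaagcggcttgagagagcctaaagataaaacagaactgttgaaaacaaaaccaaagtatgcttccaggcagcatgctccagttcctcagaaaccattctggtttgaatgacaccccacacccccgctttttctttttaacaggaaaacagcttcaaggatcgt

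*Cd80*, chr16:38458683-38458932: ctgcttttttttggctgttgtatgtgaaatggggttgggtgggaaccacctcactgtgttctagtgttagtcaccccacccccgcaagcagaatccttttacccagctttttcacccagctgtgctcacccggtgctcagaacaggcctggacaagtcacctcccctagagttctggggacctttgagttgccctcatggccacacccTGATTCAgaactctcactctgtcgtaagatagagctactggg

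*Tgfb1*, chr7:25686752-25687001: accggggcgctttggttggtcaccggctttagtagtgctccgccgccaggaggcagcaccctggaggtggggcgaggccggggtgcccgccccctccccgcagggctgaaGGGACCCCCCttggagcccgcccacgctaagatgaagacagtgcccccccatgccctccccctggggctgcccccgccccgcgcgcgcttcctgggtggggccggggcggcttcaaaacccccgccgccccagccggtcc

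On either strand, 1 kappa B match each was found in the windows of *Pdcd1lg2*, *Icosl* and *Tgfb1*, and 0 in those of *Cd274*, *Cd80*, *Lgals9* and *Cd47*. In all 32851 windows of this length, 7.25% held such a match. The AP-1 motif was in the window of *Cd80* (6.75% of all windows), and the motif of interferon regulatory factors in that of *Lgals9* (2.98%). The STAT motif TTCNNNGAA, present in 7.02% of all windows, was in none of the members' windows. No matches of different motifs overlapped. A match is a run of letters and does not show that a factor binds there. The window of *Cd80* lies within the annotated gene (38455561 to 38496335), downstream of its outermost start.

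*Cd80* and *Cd86*, whose products are the ligands of CD28 and CTLA-4, lie on chromosome 16 of GRCm38, *Cd80* from 38455561 to 38496335 on the plus strand and *Cd86* from 36603869 to 36666081 on the minus strand. *Cd80* stood at 31.8 and 31.2 FPKM in the Control and at 22.8 and 22.0 FPKM in the G-CSF libraries. The values within each group lay close together and the groups were well apart. The fall was 29.0%, with a log2 fold change of -0.49 (SE 0.0535, limma adjusted p = 0.00446), and it passed in all 12 alternative settings (adjusted p 0.000744 to 0.0196). *Cd86* had 22.2 and 16.2 FPKM in the Control and 14.3 and 13.04 FPKM in the G-CSF libraries. Both G-CSF values were lower, but the Control libraries differed from each other by more than Control replicate 2 differed from G-CSF replicate 1. Its mean was 28.8% lower with a log2 fold change of -0.47, close to that of *Cd80*, and a larger standard error of 0.145 (limma adjusted p = 0.0606). *Cd86* passed with voom on estimated reads (adjusted p = 0.0374) and with upper-quartile scaling (adjusted p = 0.0492). The size of the difference in *Cd86* depended on which Control library was kept. Its log2 fold change was -0.24 without Control replicate 1 and -0.70 without Control replicate 2. Together, *Cd80* and *Cd86* made 54.1 and 47.4 FPKM in the Control and 37.1 and 35.0 FPKM in the G-CSF libraries. The ratio of *Cd80* to *Cd86* was 1.43 and 1.93 in the Control libraries and 1.59 and 1.69 in the G-CSF libraries, and thus did not separate the groups.

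*Icosl*, on chromosome 10 of GRCm38 (78069302 to 78083913, plus strand), encodes the ligand of ICOS. It stood at 20.7 and 22.6 FPKM in the Control and at 16.6 and 17.6 FPKM in the G-CSF libraries, without overlap. It fell by 21.2% (log2 fold change -0.34, SE 0.0704, limma adjusted p = 0.0196). Its call was lost without Control replicate 2 (adjusted p = 0.0759) and without G-CSF replicate 1 (adjusted p = 0.0689). Of the 5 members of the B7 family (*Cd274*, *Pdcd1lg2*, *Cd80*, *Cd86* and *Icosl*), 4 thus fell, where 11.2% of all genes tested were called lower, and *Cd86* did not pass. The calls of 2 of these 4, *Pdcd1lg2* and *Icosl*, were lost when some libraries were left out.

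*Cd40*, a receptor of the TNF receptor family through which T cells activate antigen-presenting cells, lies on chromosome 2 of GRCm38 (165055627 to 165072948, plus strand). It stood at 3.11 and 2.89 FPKM in the Control and at 1.76 and 1.34 FPKM in the G-CSF libraries. The highest G-CSF value was well below the lowest Control value. It fell by 48.3%, from 3.0 ± 0.156 to 1.55 ± 0.296 FPKM (SD, n = 2 each), which on the log2 scale is a change of -0.92 (SE 0.171, limma adjusted p = 0.0147). This was the largest difference among the members tested, at rank 257 of the 12054 genes by absolute log2 fold change. It rests on about 114 to 116 estimated reads per Control library and 59 to 61 with G-CSF. The adjusted p was 0.0501 without a filter on low values and 0.0523 without Control replicate 1. When libraries were left out singly, its log2 fold change ranged from -1.10 to -0.74.

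**Figure D2:**
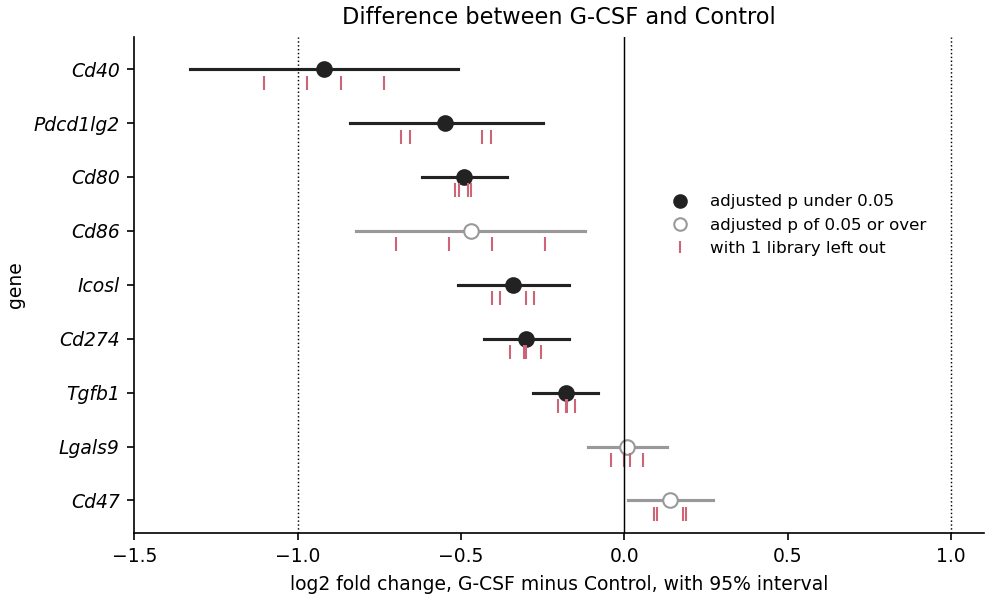
The x axis is the log2 fold change (G-CSF minus Control) on the log2(FPKM + 0.1) scale, with limma's 95% interval for each gene as a line; filled points passed an adjusted p of 0.05, open points did not, red ticks show the fold change with 1 library left out, and dotted lines mark a fold change of 2. The 6 filled points lie between -0.92 (*Cd40*) and -0.18 (*Tgfb1*), all left of 0, and the ticks of *Cd86* spread from -0.70 to -0.24.

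*Cd47* and *Lgals9* were the members tested that were not lower with G-CSF. CD47 binds SIRPα on phagocytes and restrains engulfment, and galectin-9, the product of *Lgals9*, is a ligand of TIM-3. *Cd47*, on chromosome 16 of GRCm38 (49800533 to 49915010, plus strand), had 126 and 119 FPKM in the Control and 140 and 131 FPKM in the G-CSF libraries. The G-CSF libraries were the 2 highest, on at least 8516 estimated reads per library. Its mean was 10.2% higher, with a log2 fold change of 0.14 (SE 0.0532, 95% interval 0.01 to 0.27, limma adjusted p = 0.104), and it passed with voom on estimated reads (adjusted p = 0.0428). *Lgals9*, on chromosome 11 (78962974 to 78984946, minus strand), stood at 96.0 and 89.6 FPKM in the Control and at 93.9 and 92.8 FPKM in the G-CSF libraries. The groups overlapped, with both G-CSF values between the Control values. Its log2 fold change was 0.00854 (SE 0.0495, limma adjusted p = 0.918), with a 95% interval from -0.11 to 0.13, and its sign turned with upper-quartile scaling (-0.01).

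*Tgfb1* encodes TGF-β1, which is secreted in a latent form and limits T cell activation once released. The gene lies on chromosome 7 of GRCm38 (25687002 to 25705077, plus strand). It stood at 196 and 189 FPKM in the Control and at 170 and 171 FPKM in the G-CSF libraries. The groups did not overlap, and the G-CSF libraries were nearly equal. It fell by 11.6%, from 193 ± 5.07 to 171 ± 0.305 FPKM (SD, n = 2 each), which on the log2 scale is a change of -0.18 (SE 0.0423, limma adjusted p = 0.0291). This call of *Tgfb1* was lost without a filter on low values (adjusted p = 0.0564) and whenever a library was left out (adjusted p = 0.135 without Control replicate 1, 0.0588 without Control replicate 2, 0.0993 without G-CSF replicate 1 and 0.0874 without G-CSF replicate 2). *Il10*, on chromosome 1 (131019845 to 131024974, plus strand), encodes a cytokine that restrains inflammatory responses. It was listed at 0.136 and 0.064 FPKM in Control, worth 2 reads and 1 read, and at 0 in both G-CSF libraries. A count of 0 allows up to 3 reads, or 0.219 and 0.174 FPKM of *Il10* in the G-CSF libraries, which is above both Control values. A difference in *Il10* was therefore not detectable at this depth, with counting error alone considered.

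Related genes were followed in 5 lists, which share 6 genes (*Havcr2*, *Il10ra*, *Il10rb*, *Tgfbr1*, *Tgfbr2* and *Thbs1*), so that their counts and medians are not independent. The counts of each list stand beside 11.2% of all genes tested called lower, 12.4% called higher and 1.41% called with a fold change over 2. In the list of other T cell ligands, 21 of 27 genes were tested. Of these, 8 fell, 1 rose (*Tnfsf14*, which encodes the TNF family ligand LIGHT, log2 fold change 0.38, limma adjusted p = 0.0484, up to 0.147 with a library left out) and 12 did not pass, with a median log2 fold change of -0.19. *Lgals3*, the gene of galectin-3, was the highest of these genes that fell, with 1559 and 1527 FPKM in the Control and 1143 and 1130 FPKM in the G-CSF libraries (log2 fold change -0.44, adjusted p = 0.00474). The gene of the B7 family protein VISTA, listed under its older name *4632428N05Rik*, stood at 118 and 113 FPKM in the Control and at 90.7 and 93.7 FPKM in the G-CSF libraries (log2 fold change -0.33, adjusted p = 0.00713). *H2-T23*, which encodes the non-classical MHC class I molecule Qa-1, fell by 0.50 on the log2 scale (adjusted p = 0.00739), although reads of such a multigene family may be split between its members. Of the ligands not tested, *Cd70* had 8 and 5 estimated reads in Control and 1 each with G-CSF, and *Vtcn1* was listed at 0 in every library.

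The receptors that these ligands meet were partly present in the cultures themselves. The list of receptors for the members also holds *Cd40lg* and *Thbs1*, which encode ligands. In this list, 11 of 13 genes were tested, 7 fell (against 11.2% of all genes tested), 0 rose with limma (0 at an unadjusted p under 0.05 and 0 with voom) and 4 did not pass, with a median log2 fold change of -0.26. Of these 7, 4 (*Havcr2*, *Il10ra*, *Il10rb* and *Tgfbr2*) also count as falls in another list. Only the calls of *Cd28* and *Il10ra* among the 7 held in all 12 alternative settings. *Cd28*, the receptor of CD80 and CD86, was the only gene of the 5 lists called with a fold change over 2. It stood at 5.88 and 4.75 FPKM in the Control and at 2.11 and 2.41 FPKM in the G-CSF libraries, a fall of 57.5% (log2 fold change -1.19, SE 0.149, limma adjusted p = 0.00558). *Ctla4* was listed at 0 in every library, and the T cell receptor component *Cd3e* at 0.364 and 0.516 FPKM in the Control and 0.262 and 0.260 FPKM in the G-CSF libraries, too low to be tested. Of the T cell genes tested, *Cd3d* fell by 1.04 on the log2 scale (limma adjusted p = 0.0229) and *Cd8a* by 1.05 (adjusted p = 0.0265), while *Cd3g* had a log2 fold change of -0.11 (adjusted p = 0.815). Both falls rest on few reads, 13 to 31 per library for *Cd3d* and 10 to 32 for *Cd8a* as estimated. With each library left out, their log2 fold changes ranged from -1.30 to -0.78 and from -1.21 to -0.89. Neither call held in all alternative settings. The part of T cells in the fall of *Cd28* was not tested. The IL-10 receptor gene *Il10ra* (41.6 ± 0.880 FPKM in the Control and 33.3 ± 0.310 FPKM in the G-CSF libraries, SD, n = 2 each) fell by 0.32 on the log2 scale (adjusted p = 0.00865), and the TGF-β receptor gene *Tgfbr2* by 0.24 (adjusted p = 0.0219, up to 0.0861 with a library left out).

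In the list of PD-L1 handling and CD40 signalling, 22 of 22 genes were tested, 10 fell, 0 rose with limma (1 at an unadjusted p under 0.05, *Stub1*, and 0 with voom) and 12 did not pass, and the median log2 fold change was -0.18. *Cmtm6*, whose product keeps PD-L1 at the cell surface, stood at 81.2 and 79.4 FPKM in the Control and at 62.1 and 59.8 FPKM in the G-CSF libraries (log2 fold change -0.40, limma adjusted p = 0.00489). *Relb*, a subunit of the non-canonical NF-κB pathway downstream of CD40, had 26.4 and 23.3 FPKM in the Control and 16.0 and 15.6 FPKM in the G-CSF libraries (log2 fold change -0.65, adjusted p = 0.00515). *Traf5*, a signalling adaptor of TNF receptors, stood at 6.24 and 6.08 FPKM in the Control and at 3.17 and 3.63 FPKM in the G-CSF libraries (log2 fold change -0.84, adjusted p = 0.00646). In all 3 genes the groups did not overlap, and the calls held in all 12 alternative settings.

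In the list of TGF-β storage, activation and response, 18 of 25 genes were tested, 4 fell, 0 rose with limma (1 at an unadjusted p under 0.05, *Ltbp3*, and 1 with voom) and 14 did not pass, with a median log2 fold change of -0.15. Those with the smallest p were *Tgfbr2* (above), *Furin*, whose protease cuts the TGF-β precursor (log2 fold change -0.25, limma adjusted p = 0.0296, up to 0.119 with a library left out), and *Skil*, a repressor of SMAD proteins (-0.26, adjusted p = 0.0387, up to 0.145 with a library left out). *Tgfb2* and *Tgfb3* were at 0.047 FPKM or less and 0.282 FPKM or less, far below *Tgfb1*. In the list of the IL-10 pathway and related cytokines, 17 of 21 genes were tested, 6 fell, 1 rose (*Bcl3*, a regulator of NF-κB, log2 fold change 0.28, adjusted p = 0.0235, up to 0.0918 with a library left out) and 10 did not pass, with a median of -0.24. At an unadjusted p under 0.05, 3 genes of this list were higher (*Bcl3*, *Il4ra* and *Il12a*), and voom called 2 higher. *Il12a*, a subunit gene of IL-12, had the largest positive log2 fold change of the list, 0.79 (SE 0.247, limma adjusted p = 0.0619), on 10 to 28 estimated reads per library. *Il1rn*, the gene of the IL-1 receptor antagonist, fell from 200 ± 7.65 to 148 ± 6.32 FPKM (SD, n = 2 each, log2 fold change -0.44, adjusted p = 0.0052), and *Tyk2*, a kinase of the IL-10 receptor, from 36.4 ± 0.680 to 29.5 ± 0.0912 FPKM (SD, n = 2 each, -0.30, adjusted p = 0.0104).

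**Figure D3:**
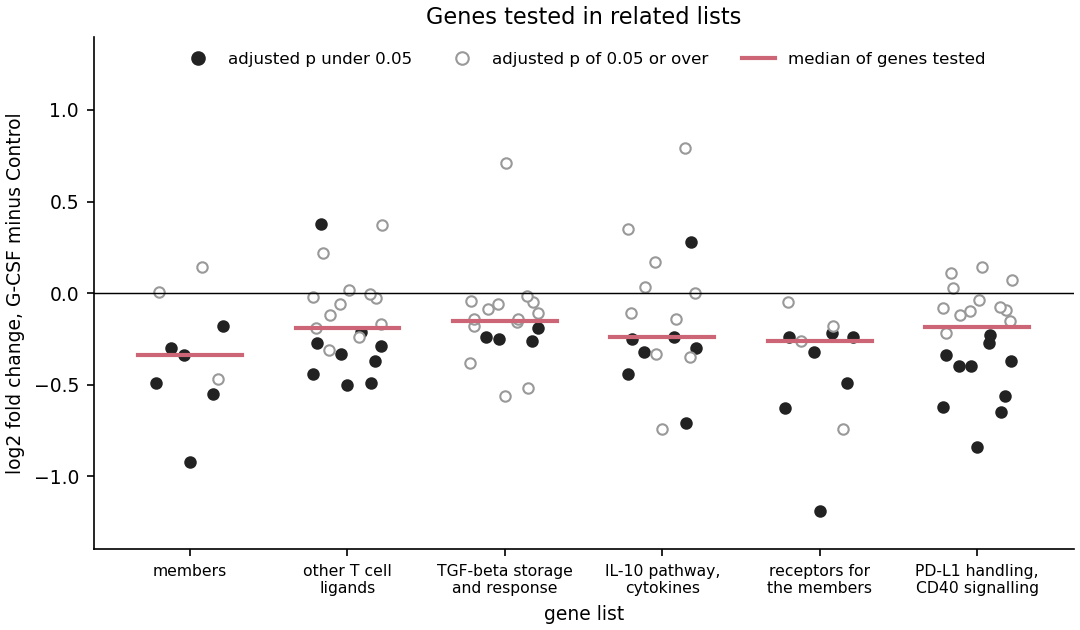
Each point is a gene tested, with its log2 fold change (G-CSF minus Control) on the y axis and its list on the x axis; filled points passed an adjusted p of 0.05 and red lines are the medians, -0.34 for the members and -0.26 to -0.15 for the other lists. *Cd28* at -1.19 is the lowest point, and *Tnfsf14* and *Bcl3* are the only filled points above 0.

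Many markers of the MDSCs themselves and of other cell types fell as well. Of all genes tested, 11.2% were called lower and 1.41% were called with a fold change over 2. The summed FPKM of 10 dendritic cell markers (among them *Itgax*, *Cd209a*, *Ciita* and MHC class II genes) was 3507 and 2986 in the Control libraries and 1939 and 1559 in the G-CSF libraries. Most of this sum came from *Cd74* and the MHC class II genes. Of the 10 markers 7 fell, 3 of them with a fold change over 2. *Flt3*, *Zbtb46* and *Ccr7* did not pass (limma adjusted p = 0.226, 0.258 and 0.0778), and the groups overlapped in *Flt3* and *Zbtb46*. Of 8 macrophage markers 6 fell, and their summed FPKM was 621 and 624 in the Control libraries and 525 and 533 in the G-CSF libraries. Of the 7 markers of MDSCs and other myeloid cells, 6 were in the tables, 4 fell and 2 did not pass. Their sums were 69403 and 59804 FPKM in the Control and 47846 and 47709 FPKM in the G-CSF libraries, most of it from *S100a8* and *S100a9*. T cell markers summed to 4.03 and 3.71 FPKM in the Control and 2.54 and 2.05 FPKM in the G-CSF libraries. Of 3 tested, 2 fell, both with a fold change over 2, on at most 32 estimated reads per library. These 2 calls did not hold in all alternative settings. B cell markers summed to 3.75 to 5.51 FPKM in the 4 libraries (1 of 3 tested fell), and natural killer cell markers to 0.273 FPKM or less, with *Ncr1* listed at 0. By flow cytometry of such cultures, the paper reports that percentages of MDSCs, dendritic cells and macrophages were unaffected by G-CSF. The proportion of monocytic MDSCs was higher there, and that of polymorphonuclear MDSCs lower. The paper does not say whether those were the sequenced cultures. In RNA values of whole cultures alone, fewer cells of a type and less RNA per cell cannot be told apart. The part of these markers in the results for the members was not tested.

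**Figure D4:**
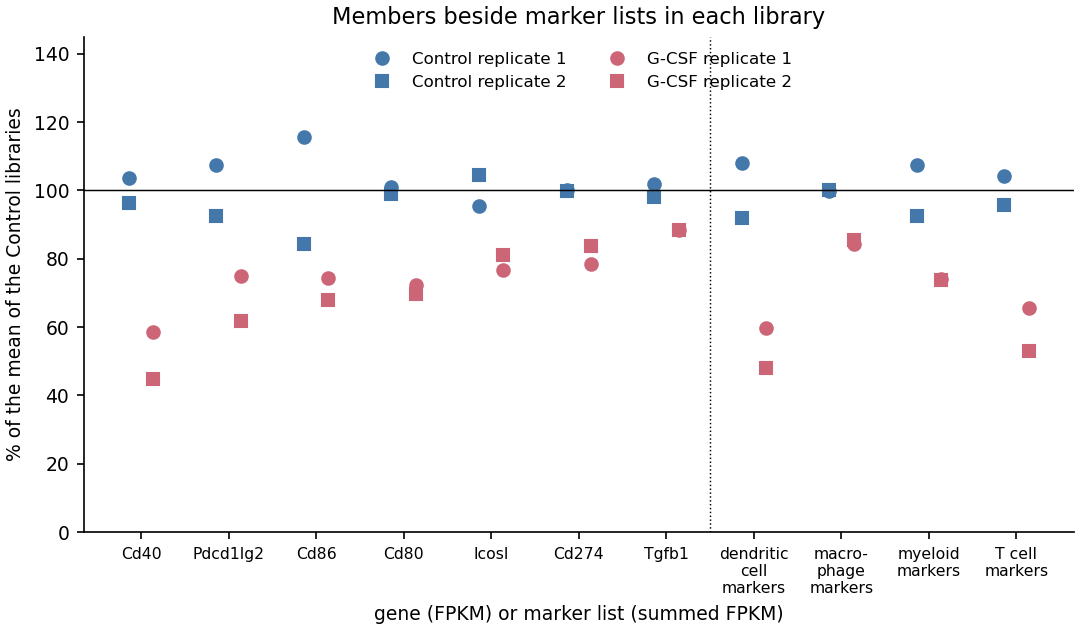
The y axis is each library's FPKM of a gene, or summed FPKM of a marker list, as a percentage of the mean of both Control libraries; colours and symbols mark the group and the replicate. With G-CSF, the dendritic cell markers stand at 59.7% and 48.0%, *Cd40* at 58.7% and 44.8%, *Cd274* at 78.3% and 83.8% and the macrophage markers at 84.3% and 85.6%.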

How the data were processed

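RNA-seq values of 4 libraries were used, 2 of the Control group (GM-CSF alone) and 2 of the G-CSF group. Libraries were made with a stranded mRNA kit and read over 75 bases from a single end. Per the labels, TopHat2 (2.0.13), Bowtie2 (2.2.3), SAMtools (0.1.19) and Cufflinks (2.2.1) and the build mm10 were named for the processing by the authors; the annotation and the strand setting are not given in the sources used here. The deposited values were taken as FPKM, because Cufflinks is named and they are not whole numbers and sum to 641609.7 to 670353.9, although no header names the unit.

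Reads per gene were estimated from the steps of low values (transcripts of 600 to 4000 bases, length less 210 bases), where 65.3% to 70.7% of these values fell on whole reads (tolerance 0.05 reads), and from the longest coding transcript in GENCODE M21 (GRCm38, the same build as mm10). With the longest transcript they sum to 114.0% to 116.4% of the depth, so they are rough. Lengths were found for 23953 of 24346 gene names, 643 of them through RefSeq synonyms. Genes reaching 10 estimated reads in 2 libraries, and 15 over the 4 libraries, were tested with limma (3.58.1, trend = TRUE, two-sided) on log2(FPKM + 0.1), which understates changes of low genes, with Benjamini-Hochberg adjustment over all of them. A gene passed at an adjusted p under 0.05, and the fold change of 2 of the paper was kept as a second threshold. Of the 75-base windows of the members' transcripts, at most 0.5% (*Cd274*) occur in other genes.

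The members and lists were chosen with earlier results of these data known. All members are named, and from each related list the genes called with a fold change over 2 and up to 3 with the smallest p. *Tnfsf14*, *Bcl3*, *Cd70*, *Vtcn1*, *Ctla4*, *Stub1*, *Ltbp3*, *Il4ra*, *Il12a*, *Cd3d*, *Cd3g*, *Cd8a*, *Cd3e*, *Tgfb2*, *Tgfb3*, *Cd74*, *Flt3*, *Zbtb46*, *Ccr7* and A930007I19Rik were named after their values were seen. The markers *S100a8*, *S100a9*, *Itgax*, *Cd209a* and *Ciita* were also named outside this rule. The fit was also run on simulated reads with almost no added spread between cultures. That run cannot show how far the calls hold in real cultures. Tools were python 3.11.15, pandas 2.3.3, numpy 2.4.6 and R 4.3.3.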

Additional observations from a re-analysis of the deposited data

How the results depend on the processing

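Under 12 alternatives, *Cd274* and *Cd80* passed an adjusted p of 0.05 in every one, and of the members tested only *Lgals9* changed its direction, to -0.01 with upper-quartile scaling, and to between -0.041 and 0.058 with each library left out. The number of members called lower was 3 without a filter on low values, 3 to 5 with each library left out, and 6 or 7 otherwise. The number called higher was 1 with voom on estimated reads and 1 with the replicate block (*Cd47*). Over all genes, 57 were called with a fold change over 2 at a pseudocount of 1 FPKM and 80 with at least 1 FPKM required in every library, against 170. Without a filter, 882 genes were higher and 744 lower at an adjusted p under 0.05, against 1494 and 1355; 16234 genes were then tested. With each library left out, 747 to 889 were higher and 659 to 1007 lower. In those fits the lone library of a group is assumed to vary like the others. The same replicate number is not said to mark a shared batch or day. With the replicate block, *Cd86* (adjusted p = 0.00539) and *Cd47* (0.0317) passed as well, and 188 genes were called with a fold change over 2; deviations of same-numbered libraries from their group means correlated with r = 0.235 across genes. No scaling moved the median of all genes by over 0.1 on the log2 scale. Depth limits *Il10*, and *Cd40* and *Pdcd1lg2* rest on few reads.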
